A study of Homo sapiens with 10 samples.

Results

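The genes described here are 35 genes of glycolysis and of the cellular response to low oxygen, followed in all 10 RNA sequencing libraries of a study of esophageal squamous cell carcinoma (ESCC) cell lines. They were taken by gene name from every table, with PKM listed under its older name PKM2 in one experiment, and all 35 were found among 20501 named genes of one set of tables and 22609 genes of the other. They fall into 5 classes: 3 carriers of glucose and lactate, 16 glycolytic enzymes (LDHA included), 3 switches of carbon flow, 3 genes for hypoxia-inducible factor (HIF) and its oxygen sensors, and 10 genes known as targets of HIF. The study asked how a type I interferon and an interferon-regulated long non-coding RNA, IRF1-AS, act in ESCC cells.

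KYSE30, KYSE180 and KYSE450 are established human ESCC lines. In the IFN-β experiment each line gave 1 library of untreated cells (buffered saline as the control) and 1 library of cells given interferon-β, an antiviral cytokine, at 1000 IU/ml for 72 h. The knockdown experiment holds, for KYSE30 and for KYSE180, cells with a control vector and cells with lentiviral IRF1-AS knockdown (1 library each), and the virus was made in HEK 293T cells. No other genetic change, clone number or oxygen tension is given in the labels, and nothing states that any culture was kept under low oxygen. The cell lines are the replicates of a treatment (3 and 2 lines), and when lines are compared the 2 libraries of a line stand in as its replicates. P-values therefore measure the spread between these few libraries, and no repeat culture of a line is labelled.

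Glycolysis splits glucose into pyruvate in the cytosol: hexokinase (HK1, HK2) traps glucose, phosphofructokinase (PFKL, PFKM, PFKP) sets the pace, and lactate dehydrogenase A (LDHA) turns pyruvate into lactate, which leaves through the carrier SLC16A3 (MCT4). When oxygen is plentiful, the prolyl hydroxylases EGLN1 and EGLN3 mark HIF1A protein for destruction. When oxygen is scarce, HIF1A protein accumulates and binds DNA at short elements that hold ACGTG or GCGTG, and it raises many glycolytic genes together with BNIP3, NDRG1, VEGFA, CA9 and other targets. HIF1A is controlled mainly at the protein level, so its RNA does not report its activity, and carcinoma cells commonly run glycolysis at a high rate.

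To show the DNA in which that element can occur, the windows of 250 bases before the RefSeq start of each gene (GRCh38.p14) were searched on both strands for ACGTG and GCGTG. The palindrome CACGTG counts as 2 overlapping matches. Windows matched 31 of the 35 genes by symbol. Either motif occurred in 21 of 31 windows (67.7%), against 43.2% of 35116 promoter windows of the same length, and the median GC content was 69.6% in the members and 58.0% in all windows. All 7 hypoxia targets with a window held a motif, as did 10 of the 16 glycolytic enzymes. A match describes the letters and says nothing of binding. The 4 stretches below are the parts of such windows that overlap no annotated exon, written 5′ to 3′ in the direction of the gene, with every motif in capitals (CACGT and CACGC are the same motifs on the other strand). BNIP3 and EGLN3 are shown because they had the smallest p-values of all members in the knockdown comparison. PGK1 and LDHA are examples of the 11 of 16 enzymes that were higher after knockdown in KYSE30 and lower in KYSE180. Others of these 11 include PFKP, with 0 matches in its window, and GAPDH, with 2. Whether motifs go with the direction of change was not tested. The BNIP3 stretch (chr10:131982014-131982173, minus strand) holds 6 motif matches, the PGK1 stretch (chrX:78103998-78104173, plus strand) 3 and the LDHA stretch (chr11:18394313-18394387, plus strand) 2. The EGLN3 stretch (chr14:33951082-33951324, minus strand) holds 0.
BNIP3: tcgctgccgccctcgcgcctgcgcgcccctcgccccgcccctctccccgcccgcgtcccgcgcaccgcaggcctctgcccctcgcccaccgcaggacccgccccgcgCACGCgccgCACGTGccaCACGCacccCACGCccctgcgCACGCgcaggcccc
EGLN3: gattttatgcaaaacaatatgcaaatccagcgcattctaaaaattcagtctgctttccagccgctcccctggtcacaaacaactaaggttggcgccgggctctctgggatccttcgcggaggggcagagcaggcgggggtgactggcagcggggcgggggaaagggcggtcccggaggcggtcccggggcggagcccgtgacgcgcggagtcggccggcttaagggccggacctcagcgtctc
PGK1: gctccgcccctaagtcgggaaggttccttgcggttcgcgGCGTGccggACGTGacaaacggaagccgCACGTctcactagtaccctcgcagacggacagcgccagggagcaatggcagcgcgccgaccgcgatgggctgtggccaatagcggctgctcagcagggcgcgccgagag
LDHA: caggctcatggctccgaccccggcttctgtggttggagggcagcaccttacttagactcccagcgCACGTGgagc

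Values are fragments per kilobase of transcript and unit of library size (FPKM), which are scaled to gene length and so allow genes to be compared within a library. Since FPKM hold no read counts, library depth is not known, and counting error cannot be stated. The 2 experiments were normalized separately, and levels are compared only within one of them. The tests took genes with 1 FPKM or more in 3 libraries (IFN-β) or 2 libraries (knockdown), a filter that 33 and 32 of the 35 members passed. Differences are on the scale of log2(FPKM + 1) after scaling the libraries to their median gene, which understates changes of genes with low values, and are given with their standard error (SE). Without that scaling the median gene of KYSE450 was 0.43 higher (log2) in the IFN-β library than in the untreated one, while KYSE30 shifted by −0.01 and KYSE180 by −0.03. As many as 19 of 33 members change direction in KYSE450 with or without scaling, so changes there are given relative to the median gene.

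The check genes and markers were read before the members. ISG15, an interferon-induced gene, was at 14.2 to 45.5 FPKM in untreated cells and at 809 to 1686 FPKM after IFN-β. Vector and knockdown cells had ISG15 at 1073 and 346 FPKM in KYSE30, and KYSE180 had 32.6 and 23.7 FPKM. C5orf56, for which RefSeq gives IRF1-AS1 as a synonym, was taken as the gene that holds IRF1-AS, and the level of the antisense RNA by itself was not read. It went from 6.86 to 3.04 FPKM in KYSE30 and from 1.08 to 0.948 FPKM in KYSE180, where it was thus near 1 FPKM in the vector library and in the library labelled IRF1-AS knockdown. All 6 squamous epithelial markers reached 1 FPKM in every library. In the IFN-β experiment, however, the keratins KRT5, KRT14 and KRT6A stood at only 1.37 to 6.33 FPKM in KYSE30, against 46.7 to 3355 FPKM in KYSE180 and KYSE450. All 5 leukocyte markers were below 1 FPKM throughout, and the summed level of 4 endothelial markers was 0.0832 to 1.18 FPKM. The 5 fibroblast markers summed to 0.26 to 1.41 FPKM in the IFN-β experiment and to 1.66 to 5.48 FPKM in the knockdown experiment. The 4 markers of HEK 293T cells summed to 1.24 to 7.71 FPKM over all libraries. In the IFN-β experiment, for which no virus is described, they summed to 2.46 to 7.71 FPKM. In the knockdown experiment that sum was 5.74 FPKM in KYSE180 vector and 1.24 FPKM in KYSE180 knockdown cells, against 3.40 and 4.15 FPKM in KYSE30. Most of the KYSE180 vector sum came from 1 marker at 4.55 FPKM, while no marker exceeded 0.866 FPKM in KYSE180 knockdown cells. The marker at 4.55 FPKM was not LIN28B, the only one of the 4 to pass the filter. LIN28B had a scaled log2 ratio of −0.05 in KYSE180. The part of this imbalance in the KYSE180 ratios was not tested. In bulk RNA, fewer cells with a transcript and less of it per cell cannot be told apart.

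**Figure D1:**
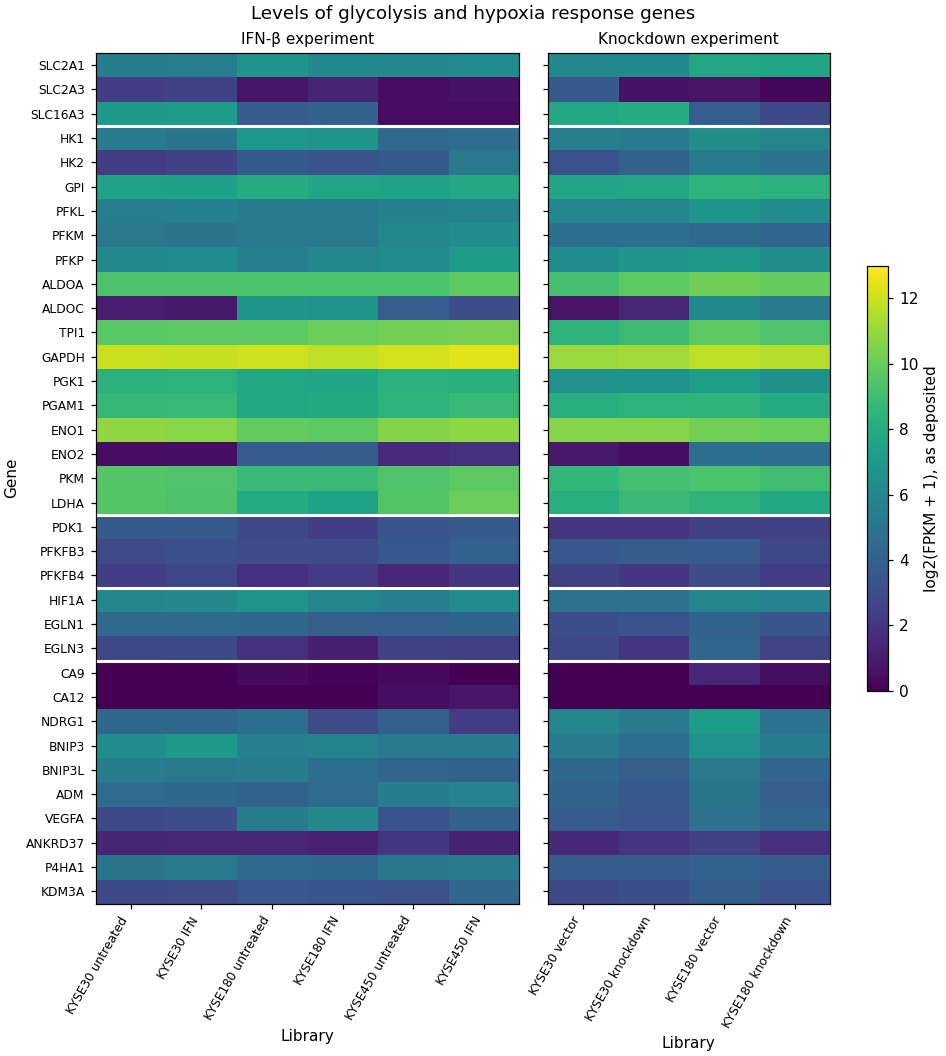
Level of each of the 35 genes in each library, as log2(FPKM + 1) of the deposited values (colour). Columns are libraries, rows are genes, and white lines part the 5 classes, from carriers at the top through enzymes, switches, HIF and its hydroxylases to hypoxia targets at the bottom. GAPDH is the brightest row throughout, CA9 and CA12 are dark in nearly every column, and SLC2A3, SLC16A3, ALDOC and ENO2 change colour between lines.

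A few glycolytic enzymes were very abundant, with 2 to 5 of the 16 among the 100 most abundant genes of a library, and the summed level of the hypoxia targets was far lower than that of the enzymes in every library. In the IFN-β experiment the 16 enzymes summed to between 7592 FPKM (KYSE180 with IFN-β) and 12759 FPKM (KYSE450 with IFN-β), and the 10 hypoxia targets to between 168 and 255 FPKM. In the knockdown experiment the enzymes summed to between 6154 FPKM (KYSE30 vector) and 9030 FPKM (KYSE180 vector), and the hypoxia targets to 372 FPKM in KYSE180 vector cells and to 124 to 170 FPKM in the other libraries. GAPDH, the enzyme that oxidises glyceraldehyde 3-phosphate, ranked between 4th and 12th in every library, at 2123 to 5541 FPKM. This rank and the 100 most abundant genes leave out structural RNAs in the IFN-β experiment. There, RMRP and RPPH1 alone held 26.5% to 41.9% of the summed FPKM. ENO1, which makes phosphoenolpyruvate, spanned 853 to 1836 FPKM. ALDOA, TPI1 and PKM, which cleave the sugar, interconvert the pieces and form pyruvate, spanned 343 to 1300 FPKM over the 10 libraries. CA9 and CA12, carbonic anhydrases that regulate pH at the cell surface and are known as strong HIF targets, did not pass the filter in either experiment. CA9 was listed at 0 in all 4 KYSE30 libraries, and its highest level was 1.68 FPKM in KYSE180 vector cells. CA12 did not exceed 0.60 FPKM in any library.

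The lines differed in most of these genes, as they did in most genes tested. In the IFN-β experiment, 26 of 33 members differed between the 3 lines (limma F test on the line terms, adjusted p under 0.05), against 67.1% of all 12428 genes tested. The 26 comprised all 3 carriers, 12 of 16 enzymes, all 3 switches, 2 of 3 in the HIF class and 6 of 8 hypoxia targets. The 7 members that did not pass were GPI, ALDOA, TPI1, GAPDH, HIF1A, NDRG1 and ANKRD37. Of the 26, EGLN1 and PFKL each no longer passed under 4 of the other settings tried, KDM3A under 3 and SLC2A1 under 1. KYSE450 was higher than KYSE30 in 9 members (22% of all genes) and lower in 6 (24.6%), and 46.6% of all genes differed. It was higher than KYSE180 in 14 members (24.1% of all genes) and lower in 6 (24.9%), and 49% of all genes differed. Scaled to the sum without structural RNAs, that comparison called 11 members higher and 8 lower, with 1723 genes higher and 4731 lower in place of 2989 and 3095, so its balance of directions depends on the scaling. The medians of the largest line difference were 1.07 (log2) over the enzymes and 1.27 over the hypoxia targets.

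Among the carriers, SLC16A3, which exports lactate, parted the lines most. It stood at 132 FPKM in untreated and 147 FPKM in IFN-β-treated KYSE30, at 12.2 and 16.2 FPKM in KYSE180, and at 0.35 and 0.37 FPKM in KYSE450. The 3 lines did not overlap, and the difference of KYSE450 from KYSE30 was −6.77 ± 0.18 (log2, SE, 2 libraries a line; F test over lines, limma adjusted p = 2.09e-05). In vector and knockdown cells SLC16A3 was at 222 and 264 FPKM (KYSE30) or 13.9 and 6.57 FPKM (KYSE180), a difference of −4.60 ± 0.31 (limma adjusted p = 0.00148).

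The other lactate carrier, SLC16A1 (MCT1), did not follow this order, with 79.2 to 130 FPKM over the IFN-β experiment and 40.7 to 44.0 FPKM over the knockdown experiment. SLC16A3 therefore made up 55.1% and 56.5% of the summed FPKM of both carriers in KYSE30, 13.3% and 13.0% in KYSE180 and 0.433% and 0.284% in KYSE450. The same share over vector and knockdown cells was 84.2% and 86.2% in KYSE30 and 23.9% and 13.9% in KYSE180.

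SLC2A3 (GLUT3), a high-affinity glucose carrier, was also highest in KYSE30, at 4.12 and 4.84 FPKM there against 0.69 and 1.50 FPKM in KYSE180 and 0.33 and 0.53 FPKM in KYSE450 (limma adjusted p over lines = 0.000859). SLC2A3 did not pass the filter of the knockdown experiment, since 1 of its 4 libraries exceeded 1 FPKM: KYSE30 vector cells at 11.4 FPKM, against 0.533 FPKM in KYSE30 knockdown cells and 0.592 and 0.144 FPKM in KYSE180. This difference within KYSE30 was not tested. SLC2A3 has a near-identical neighbour, SLC2A14, and how reads shared by both were counted is not given.

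SLC2A1 (GLUT1), the main glucose carrier of most cells and a HIF target, exceeded SLC2A3 in every library. It was at 43.8 and 46.7 FPKM in KYSE30, 109 and 71.1 FPKM in KYSE180 and 64.6 and 77.0 FPKM in KYSE450. KYSE30 vector and knockdown cells had 65.7 and 73.7 FPKM, and those of KYSE180 had 224 and 197 FPKM. KYSE180 was higher than KYSE30 in both experiments, by 0.72 ± 0.19 and 1.50 ± 0.19 (log2; IFN-β and knockdown experiment).

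Among the glycolytic enzymes, ALDOC and ENO2 differed most between the lines. ALDOC, the brain-type aldolase, stood at 1.06 and 0.94 FPKM in KYSE30, 114 and 98.6 FPKM in KYSE180 and 13.9 and 7.34 FPKM in KYSE450. The order of the lines was the same in both arms, and KYSE180 exceeded KYSE30 by 5.56 ± 0.32 (log2). Vector and knockdown cells had ALDOC at 0.619 and 1.67 FPKM in KYSE30, and KYSE180 had 71.1 and 40.5 FPKM, a difference of 4.66 ± 0.38.

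ENO2, the neuronal enolase, had the same order of lines as ALDOC. It was at 0.37 and 0.42 FPKM in KYSE30, 12.1 and 12.2 FPKM in KYSE180 and 1.94 and 2.45 FPKM in KYSE450 (limma adjusted p over lines = 0.000136). ENO2 in vector and knockdown cells was at 0.848 and 0.411 FPKM in KYSE30 and 25.5 and 24.4 FPKM in KYSE180, a difference of 3.95 ± 0.23 (log2). It met the filter of the knockdown experiment only through the 2 KYSE180 libraries, so the filter itself favoured a gene higher in that line. These isoenzymes were minor partners of ALDOA and ENO1: ALDOC reached at most 15.1% of the summed aldolase FPKM (KYSE180, untreated) and ENO2 at most 2.22% of the summed enolase FPKM (KYSE180, knockdown).

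HK1, the hexokinase of most tissues, was highest in KYSE180. It was at 37.9 and 32.6 FPKM in KYSE30, 121 and 106 FPKM in KYSE180 and 21.3 and 24.3 FPKM in KYSE450, with no overlap between lines (limma adjusted p = 0.00022). HK2, the inducible hexokinase linked to tumour glycolysis, was at 3.90 and 4.89 FPKM in KYSE30, 11.6 and 9.78 FPKM in KYSE180 and 11.7 and 37.9 FPKM in KYSE450. HK2 thus made up 35.5% of the hexokinase FPKM in untreated and 60.9% in IFN-β-treated KYSE450, but 8.46% to 13.0% in the other 4 libraries of that experiment. HK1 in vector and knockdown cells was at 46.1 and 38.6 FPKM in KYSE30 and 84.6 and 60.1 FPKM in KYSE180. HK2 there was at 8.80 and 16.3 FPKM in KYSE30 and 38.6 and 29.9 FPKM in KYSE180.

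In the IFN-β experiment PGK1, PGAM1, ENO1, PKM and LDHA were lowest in KYSE180, the line in which ENO2 was highest. LDHA was at 733 and 661 FPKM in KYSE30, 252 and 177 FPKM in KYSE180 and 700 and 1064 FPKM in KYSE450. KYSE180 lay below both other lines in either arm, by 1.94 ± 0.20 (log2) against KYSE30 for the fitted difference (F test over lines, limma adjusted p = 0.000491). PGK1, PGAM1, ENO1 and PKM, which act in sequence before LDHA, were likewise lower in KYSE180 than in KYSE30, with differences of −0.95, −1.03, −1.20 and −0.90 that passed the test. PGK1, which makes the first ATP of the payoff phase, was at 331 and 341 FPKM in KYSE30, 212 and 196 FPKM in KYSE180 and 318 and 308 FPKM in KYSE450. GAPDH, one step earlier, differed by −0.23 ± 0.19 and did not pass. LDHA made up 46.3% and 46.6% of the summed FPKM of LDHA and its partner LDHB in KYSE30, 21.1% and 17.2% in KYSE180 and 27.2% and 36.0% in KYSE450.

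That pattern was not seen in the knockdown experiment. LDHA was at 285 and 443 FPKM in KYSE30, with 350 and 223 FPKM in KYSE180, so the lines overlapped. The fitted differences of KYSE180 from KYSE30 were −0.43 ± 0.32 for LDHA, 0.21 ± 0.25 for PGK1, −0.14 ± 0.23 for PGAM1, −0.57 ± 0.18 for ENO1 and 0.23 ± 0.24 for PKM, and none passed the test.

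**Figure D2:**
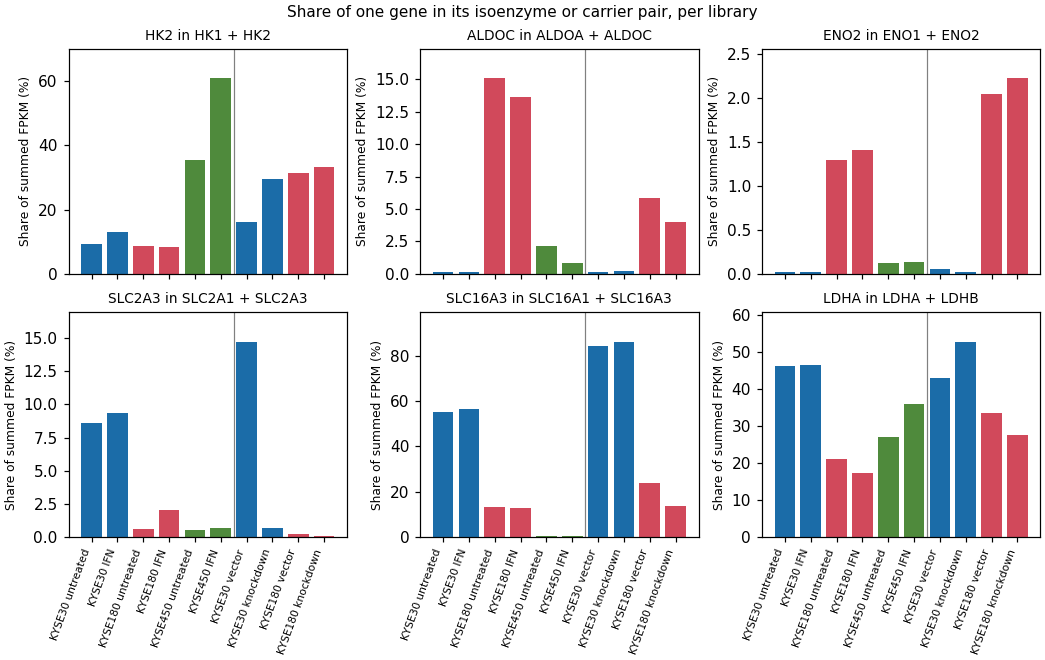
Share of one gene in the summed FPKM of its isoenzyme or carrier pair, in percent on axes that start at 0, for each library (blue KYSE30, red KYSE180, green KYSE450; the grey line parts the IFN-β experiment from the knockdown experiment). SLC16A3 ranges from over 55% in KYSE30 to under 1% in KYSE450, ALDOC and ENO2 have their highest shares in KYSE180, and HK2 reaches 60.9% in IFN-β-treated KYSE450.

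The 3 switches of carbon flow were expressed at low levels in all lines. PDK1, the kinase that shuts pyruvate out of the mitochondrial citric acid cycle, was at 11.7 and 12.02 FPKM in KYSE30, 6.05 and 4.24 FPKM in KYSE180 and 9.80 and 11.8 FPKM in KYSE450. KYSE180 was lower than KYSE30 by 1.28 ± 0.17 on the log2 scale, and its libraries did not overlap those of the other lines. PDK1 was at 2.89 FPKM in both KYSE30 libraries of the knockdown experiment and at 4.69 and 4.76 FPKM in those of KYSE180.

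PFKFB3 and PFKFB4 make and break down fructose 2,6-bisphosphate, the activator of phosphofructokinase. PFKFB3 was at 6.95 and 8.18 FPKM in KYSE30, 6.71 and 7.23 FPKM in KYSE180 and 11.0 and 15.2 FPKM in KYSE450. PFKFB4 was at 4.38 and 5.71 FPKM in KYSE30, 2.52 and 3.78 FPKM in KYSE180 and 1.66 and 3.26 FPKM in KYSE450. KYSE450 was highest for the first and KYSE30 for the second, and both passed the F test over lines (limma adjusted p = 0.00535 and 0.00802).

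HIF1A RNA did not separate the lines in the IFN-β experiment. It was at 61.5 and 69.5 FPKM in KYSE30, 104 and 61.0 FPKM in KYSE180 and 50.1 and 76.9 FPKM in KYSE450, and the lines overlapped (limma adjusted p = 0.764). Vector and knockdown cells had HIF1A at 29.2 and 29.4 FPKM in KYSE30, and KYSE180 had 61.1 and 53.3 FPKM, a difference of 0.86 ± 0.18 (limma adjusted p = 0.0248). The strand setting of the counting is not given, so reads of HIF1A and of antisense transcripts over it cannot be told apart.

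EGLN1, the main oxygen-sensing hydroxylase, lay at 20.8 and 20.5 FPKM in KYSE30, 19.3 and 14.5 FPKM in KYSE180 and 13.6 and 17.4 FPKM in KYSE450. Its level in vector and knockdown cells was 7.47 and 8.89 FPKM in KYSE30 and 16.0 and 9.83 FPKM in KYSE180. EGLN3, a hydroxylase that is itself induced by HIF, was at 5.94 and 6.53 FPKM in KYSE30, 2.39 and 1.19 FPKM in KYSE180 and 4.92 and 4.45 FPKM in KYSE450. KYSE180 was the lowest line for EGLN3 in both arms, by 1.57 ± 0.23 against KYSE30 (log2).

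Among the hypoxia targets, VEGFA, the growth factor for blood vessels, was highest in KYSE180. It was at 6.54 and 7.57 FPKM in KYSE30, 43.9 and 68.7 FPKM in KYSE180 and 9.27 and 16.8 FPKM in KYSE450 (limma adjusted p over lines = 0.00022). Vector and knockdown cells had VEGFA at 12.6 and 10.7 FPKM in KYSE30, and 28.3 and 18.0 FPKM in KYSE180. Fitted differences of KYSE180 from KYSE30 were 2.59 ± 0.17 and 0.83 ± 0.20 (log2) in the 2 experiments.

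ADM, the vasodilator peptide adrenomedullin, was highest in KYSE450, at 42.6 and 52.5 FPKM against 22.7 and 20.0 FPKM in KYSE30 and 16.4 and 22.1 FPKM in KYSE180. BNIP3, a mitochondrial receptor for mitophagy, was highest in KYSE30, at 82.4 and 125 FPKM against 49.0 and 55.97 FPKM in KYSE180 and 37.2 and 38.4 FPKM in KYSE450. Neither gene's top line overlapped the others. P4HA1 (a collagen prolyl hydroxylase) and KDM3A (a histone demethylase) ranged from 20.2 to 38.8 FPKM and from 6.70 to 18.3 FPKM in that experiment. Both passed the F test, but KDM3A no longer passed under 3 of the other settings tried.

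The KYSE180 and KYSE30 lines were sequenced in both experiments, which allows their difference to be set side by side. KYSE180 differed from KYSE30 in 20 of 33 members in the IFN-β experiment, where 45.7% of all genes did. Of these members 5 were higher (21.9% of all genes) and 15 lower (23.8% of all genes). Scaled to the sum without structural RNAs, 7 members were higher and 11 lower, with 3991 genes higher and 1973 lower in place of 2726 and 2958, and with values as deposited 6 and 11 members and 3011 and 1791 genes. In the knockdown experiment 10 of 32 members differed, against 28.7% of all genes, with 9 higher (14.9% of all genes) and 1, SLC16A3, lower (13.8% of all genes). Over the 32 members tested in both, the sign was shared by 15 (46.9%), against 74.4% of 10039 genes. Pearson's r of the difference across genes was 0.83 in the members and 0.79 in all genes, as a description, since genes are not independent and the members' r leans on a few genes with very large differences. Of these 32 members, 19 passed in the IFN-β experiment and 10 in the knockdown experiment. The 8 members that passed in both were 42.1% of the 19 and 80.0% of the 10. The same shares were not computed over all genes, so these 2 have no background to be set against. Of the 8 members, SLC2A1, HK1, ALDOC, ENO2, SLC16A3 and VEGFA had the same direction, and BNIP3 and EGLN3 had opposite directions. ENO2 met the knockdown filter through its KYSE180 libraries alone.

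BNIP3 was lower in KYSE180 by 1.16 ± 0.26 (log2) in the IFN-β experiment and higher by 0.89 ± 0.20 in the knockdown experiment. EGLN3 was lower by 1.57 ± 0.23 and higher by 0.98 ± 0.26. In the knockdown experiment the lines overlapped for EGLN3, with KYSE180 knockdown cells at 5.41 FPKM and KYSE30 vector cells at 5.96 FPKM. For BNIP3 the same libraries were at 43.0 and 41.5 FPKM, so the lines parted narrowly. Within each arm KYSE180 was the higher line for both genes. Untreated cells and vector control cells are not the same culture condition, and the values of the 2 experiments were normalized separately. The labels name no library batch. Differences of culture, of processing and of the cells of a line cannot be told apart here. The knockdown-experiment differences of BNIP3 and EGLN3 did not pass under 1 and 2 of the other settings tried. Among the members with the same direction, those of HK1 and VEGFA did not pass under 2 and 1 settings. The IFN-β-experiment difference of SLC2A1 did not pass under 1 setting.

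**Figure D3:**
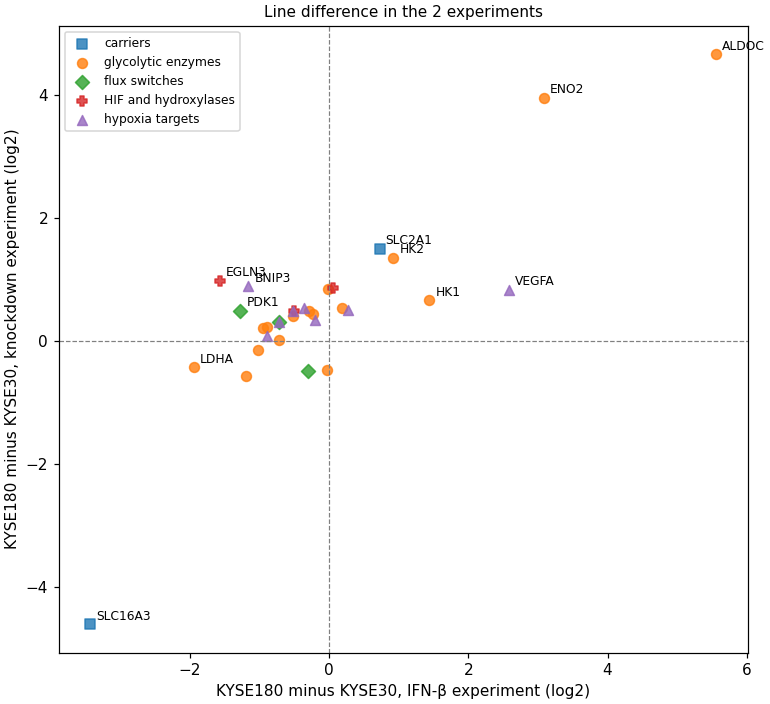
Fitted log2 difference of KYSE180 minus KYSE30 for each of the 32 genes tested in both experiments, IFN-β experiment on the horizontal axis and knockdown experiment on the vertical axis; symbols mark the 5 classes, and dashed lines mark 0. ALDOC, ENO2 and SLC16A3 lie far out in the same direction on both axes, whereas BNIP3 and EGLN3 lie in the upper left quadrant, lower in KYSE180 in one experiment and higher in the other.

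IFN-β left both classes without a called change. None of 33 members passed limma's test in the IFN-β comparison (adjusted p under 0.05), where 0.41% of all genes passed, all of them higher. At an unadjusted p under 0.05 there were 5 members (BNIP3L, VEGFA, PFKFB4, NDRG1 and PFKP) against 9.74% of all genes. The median log2 fold change was −0.10 over the 16 enzymes, −0.004 over the 8 hypoxia targets and −0.01 over all genes. By line, KYSE30 had a median of the hypoxia targets 0.08 above that of the enzymes, and the difference was −0.04 for KYSE180 and −0.19 for KYSE450. Of the wider lists, 0 of 32 other genes of glycolysis and carbon flow, 0 of 8 of the HIF pathway and 0 of 25 further hypoxia-inducible genes passed. Among the 25, AK4 was read under the listed name AK3, which may be another gene, so AK4 itself may not be covered.

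NDRG1, a stress-response gene that HIF and differentiation both induce, was the member whose IFN-β pairs differed most. It was at 19.6 and 19.9 FPKM in KYSE30, 25.9 untreated and 6.89 FPKM with IFN-β in KYSE180, and 15.0 and 4.02 FPKM in KYSE450. The 2 lines with a difference went down and KYSE30 was level, and the fitted change was −1.27 ± 0.44 (SE, n = 3 lines; limma adjusted p = 0.501). With values as deposited it was −1.14 ± 0.25 and passed (limma adjusted p = 0.000642), as it did without KYSE30 (−1.93, limma adjusted p = 0.0171). That fit as deposited passed 1.91% of all genes, 193 higher and 44 lower, where the scaled one passed 51 higher and 0 lower.

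BNIP3L (NIX), a receptor for mitophagy like its relative BNIP3, was lower with IFN-β in every line. KYSE30 went from 44.7 to 37.0 FPKM, KYSE180 from 43.3 to 24.9 FPKM and KYSE450 from 18.1 to 15.4 FPKM, with a fitted change of −0.56 ± 0.14 (SE, n = 3 lines; limma adjusted p = 0.315). ANKRD37, a small ankyrin-repeat protein gene, was low throughout, at 1.53 and 1.60 FPKM in KYSE30, 1.59 and 1.32 FPKM in KYSE180 and 3.31 and 1.49 FPKM in KYSE450. VEGFA was higher with IFN-β in every line, with a fitted change of 0.39 ± 0.14 (limma adjusted p = 0.496).

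Of the enzymes, PFKP (the platelet-type phosphofructokinase) stood at 74.5 and 79.7 FPKM in KYSE30, 45.9 and 63.6 FPKM in KYSE180 and 77.1 and 142 FPKM in KYSE450 (0.32 ± 0.13, limma adjusted p = 0.512). PFKL was at 46.4 and 51.0 FPKM in KYSE30, 38.6 and 39.9 FPKM in KYSE180 and 51.5 and 55.3 FPKM in KYSE450. HK2 differed most in KYSE450, where its scaled log2 ratio was 1.12, against 0.27 in KYSE30 and −0.18 in KYSE180. ALDOC was lower in KYSE450 (log2 ratio −1.31) and nearly level in KYSE30 (−0.09) and KYSE180 (−0.16). PFKFB4 was higher with IFN-β in all 3 lines (0.37 ± 0.14, limma adjusted p = 0.501). None of these passed the test.

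**Figure D4:**
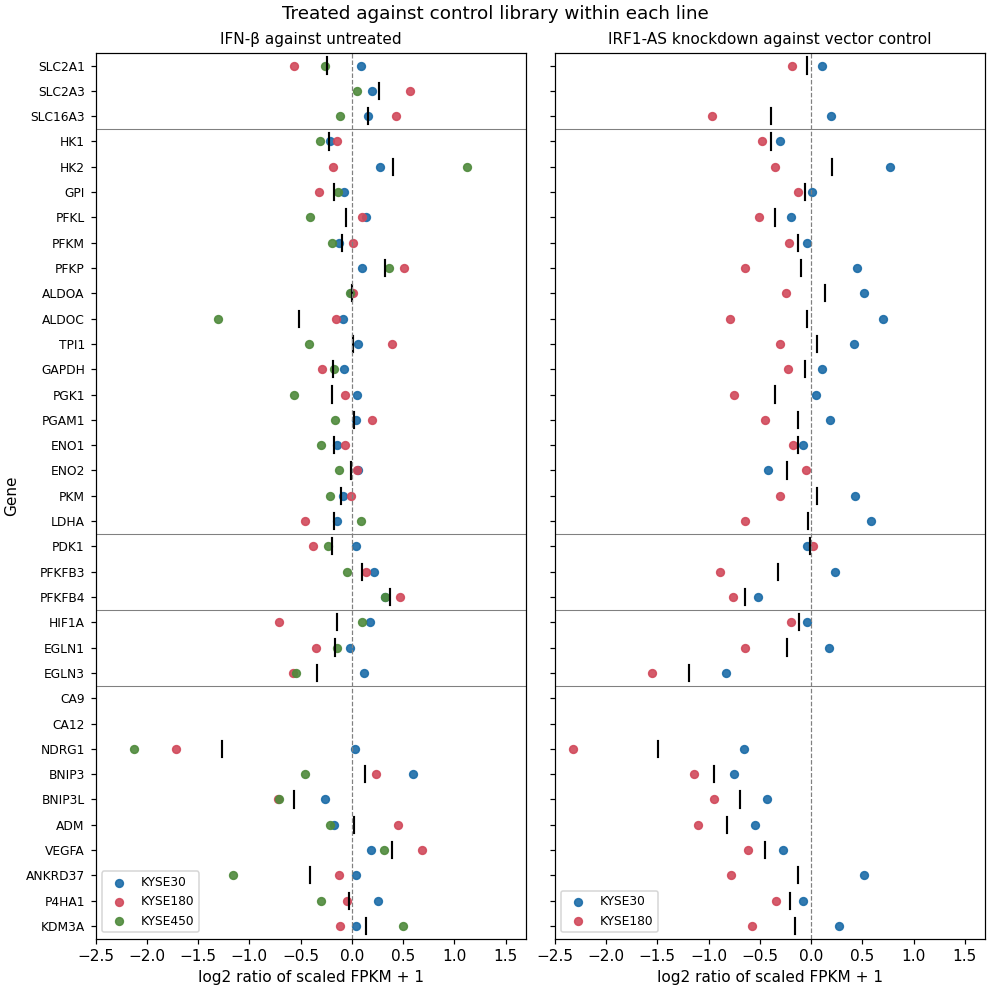
Log2 ratio of treated to control library for each gene in each line, on the scale of scaled FPKM + 1 (points; blue KYSE30, red KYSE180, green KYSE450), with the fitted mean as a black bar; grey lines part the classes in the same order as in the heat map of levels. In the right panel the KYSE180 points lie left of 0 for 31 of 32 genes, the KYSE30 points of most enzymes lie right of 0, and NDRG1, EGLN3, BNIP3, ADM and BNIP3L lie left of 0 in both lines.

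Knockdown of IRF1-AS gave no called gene, and the hypoxia targets had a lower median ratio than the enzymes in both lines. No member passed (0 of 32), nor did any of 12813 genes (0%; limma, adjusted p under 0.05), and at an unadjusted p under 0.05 there were 6 members and 842 genes (6.57%). All 6 were lower: NDRG1, EGLN3, BNIP3, ADM, BNIP3L and PFKFB4. The median log2 ratio of the 16 enzymes was 0.15 in KYSE30 and −0.33 in KYSE180, and that of the 8 hypoxia targets was −0.35 and −0.86. The targets thus lay below the enzymes by 0.50 in KYSE30 and 0.53 in KYSE180, and by 0.50 and 0.54 with values as deposited. The ranges overlapped: the enzymes spanned −0.42 to 0.77 and the targets −0.75 to 0.52 in KYSE30, and −0.79 to −0.05 and −2.32 to −0.34 in KYSE180. No test of this contrast was run.

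The direction was not the same in both lines for most enzymes. In KYSE30, 11 of 16 enzymes were higher after knockdown and 6 of 8 hypoxia targets were lower, where 52.0% of all genes were lower. All 16 enzymes and all 8 targets were lower in KYSE180, and over all members 31 of 32 (96.9%) were lower, against 50.3% of all genes. Members higher in KYSE30 and lower in KYSE180 numbered 17 of 32 (53.1%; 21.9% of all genes), and 14 of 32 were lower in both (43.8%; 27.8% of all genes). The KYSE180 ratios all rest on the vector control library, in which the summed hypoxia targets were at 372 FPKM, against 145 FPKM after knockdown and 170 and 124 FPKM in KYSE30. Without KYSE180, 15 of 32 members (46.9%) were lower, against 52.0% of all genes. The squamous markers moved too: 5 of 6 were lower in KYSE180 after knockdown (sum 8823 to 6389 FPKM) and 3 of 6 in KYSE30 (sum 656 to 889 FPKM), and their part in these values was not tested.

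Among the targets, NDRG1 was at 59.9 FPKM in KYSE30 vector and 39.1 FPKM in KYSE30 knockdown cells, and at 143 and 27.8 FPKM in KYSE180. Both pairs went down and the 2 arms did not overlap, with a fitted change of −1.49 ± 0.41 (SE, n = 2 lines; limma adjusted p = 0.720). Arms of 2 libraries can part easily, and such genes were not counted over all genes. Here and below, overlap of the arms is a description only. BNIP3 went from 41.5 to 25.2 FPKM in KYSE30 and from 96.5 to 43.0 FPKM in KYSE180 (−0.95 ± 0.20, limma adjusted p = 0.678). The BNIP3 pairs had log2 ratios of −0.75 and −1.14, and the arms overlapped, since KYSE180 after knockdown was above KYSE30 vector cells.

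ADM went from 16.3 to 11.3 FPKM in KYSE30 and from 31.9 to 14.2 FPKM in KYSE180 (−0.82 ± 0.22, limma adjusted p = 0.720). The arms did not overlap for ADM, as its lowest vector level was above its highest knockdown level. BNIP3L went from 19.2 to 14.5 FPKM in KYSE30 and from 35.5 to 17.9 FPKM in KYSE180 (−0.69 ± 0.22, limma adjusted p = 0.743). The arms did not overlap for BNIP3L either. ANKRD37 went up in KYSE30, from 1.83 to 3.15 FPKM, and down in KYSE180, from 4.95 to 2.44 FPKM.

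In the HIF class, EGLN3 moved with the targets: from 5.96 to 3.05 FPKM in KYSE30 and from 17.9 to 5.41 FPKM in KYSE180 (−1.19 ± 0.26, limma adjusted p = 0.678), with no overlap of the arms. HIF1A itself differed by −0.12 ± 0.18 and EGLN1 by −0.23 ± 0.27. PFKFB4 was lower in both lines, from 4.84 to 3.20 FPKM in KYSE30 and from 7.38 to 3.92 FPKM in KYSE180 (−0.64 ± 0.23, limma adjusted p = 0.747). PFKFB3 went from 10.7 to 13.2 FPKM in KYSE30 and from 12.1 to 6.08 FPKM in KYSE180.

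Of the enzymes, LDHA, whose stretch above holds 2 overlapping motif matches, went up in KYSE30 (log2 ratio 0.58) and down in KYSE180 (−0.65). PGK1, with 3 motif matches, was at 93.2 and 100 FPKM in KYSE30 and 154 and 90.8 FPKM in KYSE180 (−0.35 ± 0.25, limma adjusted p = 0.844). PFKL, the liver-type phosphofructokinase, was at 66.9 and 60.7 FPKM in KYSE30 and 108 and 75.5 FPKM in KYSE180. HK1 was lower in both lines (−0.39 ± 0.18, limma adjusted p = 0.798). PFKP, whose window holds 0 motif matches, also had opposite directions. It went from 80.0 to 113 FPKM in KYSE30 and from 128 to 80.9 FPKM in KYSE180. Many enzymes of this class, among them GAPDH, PGK1, LDHA, ENO1 and TPI1, have processed pseudogenes, and how the authors counted reads that fit several places is not given.

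Genes of the same pathways outside the 35 were read for comparison. Of 31 other genes of glycolysis and carbon flow, 8 of the HIF pathway and 28 further hypoxia-inducible genes, none passed the knockdown test. By value, 27 of the 28 hypoxia-inducible genes had a lower fitted level after knockdown and WSB1 a higher one. By line, 18 of 28 were lower in KYSE30 (52.0% of all genes) and 27 of 28 in KYSE180 (50.3% of all genes). The fitted count thus leans on KYSE180 and its 1 vector library. In both lines 17 of 28 (60.7%) were lower, against 27.8% of all genes. The median log2 fold change of the 28 genes was −0.28. DDIT4, an inhibitor of mTORC1 that hypoxia and stress induce, had the smallest p of this list (−1.27 ± 0.23, limma adjusted p = 0.608) and was at 249 and 133 FPKM in KYSE30 and 186 and 60.7 FPKM in KYSE180. Of the 31 glycolysis and carbon flow genes, 24 had a lower fitted level, with 15 lower in KYSE30 and 21 in KYSE180. Lower in both lines were 8 of 31 (25.8%), against 27.8% of all genes.

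Over both treatments, 3 of 32 members were lower in all 5 treated libraries than in their controls (9.38%; 6.35% of all genes): HK1, ENO1 and BNIP3L. As deposited, HK1 and ENO1 were higher with IFN-β in KYSE450, and BNIP3L alone remained.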

How the data were processed

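RNA from 10 libraries of ESCC cell lines had been sequenced by a standard Illumina protocol from total RNA, per the labels' protocols. TopHat, HTSeq and build hg38 are named in the submitters' processing notes, whereas versions, annotation, strand setting and depth are not given. Per the file headers the authors deposited FPKM. Low values gave no whole reads, so no count test was run.

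The members and lists, the scaling and the tests were chosen with earlier results of these data known. Transcripts of long non-coding genes were added up by gene (IFN-β experiment), and 946 copies on alternate haplotypes were joined with their primary gene (knockdown experiment). FPKM were divided by median-of-ratios size factors (0.812 to 1.16), and log2(FPKM + 1) was fitted with limma 3.58.1 (trend, robust; statmod 1.5.0; R 4.3.3), one fit per experiment, with treatment and cell line as terms, over 12428 and 12813 genes, with Benjamini-Hochberg adjustment at 0.05. These fits left 2 and 1 residual degrees of freedom, so most of the spread used in a test is shared across genes. Same-numbered libraries come from the same line, and their deviations from the group means correlated across genes at 0.841 to 0.910 in the IFN-β experiment and 0.842 in the knockdown experiment.

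Values in each library are given for every carrier, switch, HIF or hydroxylase gene that passed the filter, members called in a treatment test with or without scaling, the 4 enzymes and 4 targets with the largest change in each treatment, and the 3 of each class with the largest spread between lines. Other members are given by counts and ranges, with some added after their values were seen. Alternatives were other scalings, a pseudocount of 0.1, no filter, an average of 5 FPKM, limma without the robust option, no block, and leaving out each line. Promoter windows are RefSeq's (GRCh38.p14); those of SLC2A3, NDRG1, BNIP3L and VEGFA were not used here.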

Additional observations from a re-analysis of the deposited data

Results flagged for a closer look

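For 7 members, paired libraries of 2 lines went in opposite directions under the same treatment, each by at least 1.25-fold, and the difference between the lines was not tested. After knockdown these were HK2, PFKP, ALDOC, LDHA and ANKRD37, all higher in KYSE30 and lower in KYSE180. The KYSE30 log2 ratio exceeded that of KYSE180 by 1.12 for HK2, 1.09 for PFKP, 1.50 for ALDOC, 1.23 for LDHA and 1.30 for ANKRD37. With IFN-β, TPI1 was higher in KYSE180 and lower in KYSE450 (difference of log2 ratios 0.816), and BNIP3 was higher in KYSE30 and lower in KYSE450 (1.06). The KYSE450 directions depend on the scaling: as deposited, TPI1 and BNIP3 went from 1214 to 1300 FPKM and from 37.2 to 38.4 FPKM there. The same rule picked 6.58% of all genes in the knockdown experiment, against 5 of 32 members (15.6%), and 7.69% of all genes in the IFN-β experiment, against 2 of 33 members.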

How the results depend on the processing

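No called result reversed under the alternatives run. With 0 of 33 members called for IFN-β, the values as deposited and the fit without KYSE30 each called 1, NDRG1 (range 0 to 1 over lines left out). Of all genes, 51 were called for IFN-β, 237 as deposited, 14 with no filter, and 32 to 79 with a line left out. The replicate block (cell line as a term) raised that count: without it 13 genes and 0 members were called, and it changed no call in the knockdown comparison. The median IFN-β change of the enzymes, −0.10, was 0.017 when scaled to the sum without structural RNAs, 0.053 as deposited, and −0.14 to −0.03 with a line left out, so its sign is not settled. Members that differed between lines numbered 26 with all 3 lines and between 16 and 20 with a line left out, when 5779 to 7163 genes did. In the knockdown experiment, 10 members and 3677 genes differed between KYSE180 and KYSE30; with no filter these were 4 and 1157, and at an average of 5 FPKM 2294 genes. Leaving out a line of the knockdown experiment left values with no test, and the medians were then 0.15 and −0.33 for the enzymes and −0.35 and −0.86 for the targets. Of the other values for single genes, 772 kept their side of the threshold, 46 no longer passed and 2 newly passed. Depth is unknown, and genes under 1 FPKM were not tested.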
